A study of Callithrix jacchus with 4 samples.

Results

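In total, 5 genes of the MHC class I presentation pathway were followed through single-nucleus RNA-seq libraries of the primary visual cortex (V1) of adult marmosets: B2M, CAJA-E, TAP1, TAPBPL and NLRC5. These 5 genes, of 16383 genes listed in both deposited tables, were chosen because earlier results of the same data showed them higher in injured than in control nuclei, and their unique molecular identifiers (UMIs, one per counted transcript) were summed per library and annotated cell type. The injured group consisted of 3 adult animals, F1565, F1619 and F1711, with 1 library each, taken 7 days after an ischemic stroke was induced with the vasoconstrictor endothelin-1 (ET-1), and the dissection included the infarct core and penumbra. The control group was a single library that pooled V1 nuclei of 3 adult animals. The labels and the study's results and methods give these as uninjured animals. A supplementary legend of the study instead points to V1 of the other hemisphere as control, which the tables cannot check. The authors annotated each nucleus as microglia, endothelial cell (Endo), astrocyte (Astro), oligodendrocyte precursor (OPC), oligodendrocyte (Oligo), excitatory neuron (ExN) or inhibitory neuron (InN).

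MHC class I molecules carry peptides from inside the cell to its surface, where CD8 T cells and natural killer cells read them. A heavy chain pairs with the light chain beta-2-microglobulin, encoded by B2M, and the pair leaves the endoplasmic reticulum once it has bound a peptide. TAP1, with TAP2, forms the transporter that brings peptides into the endoplasmic reticulum; TAPBPL, also called TAPBPR, edits which peptides are kept; and NLRC5 is the transactivator that drives transcription of class I genes. CAJA-E is the marmoset heavy chain related to human HLA-E. Interferons are known to raise this pathway, and neurons of the healthy brain are known for low class I expression.

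The libraries held 12527, 7500, 9510 and 8610 nuclei (F1565, F1619, F1711 and control), with a median of 3531, 4504.5, 4229.5 and 2117 UMIs per nucleus. Of the fixed cell type markers with a row, 32 of 33 in the injured table and 31 of 32 in the control table were highest in their own annotated type, the exceptions being GPR34 (microglia) and FLT1 (Endo), respectively. Control nuclei were fewest for microglia (129), OPC (171) and Endo (181). The control nuclei had also been sorted by FACS, isolated with another protocol, processed and sequenced at another facility and freed of doublets in another way, so these steps and the injury cannot be told apart in any comparison of injured with control nuclei. Whether control reads were counted against the same gene models as injured reads could not be checked from the tables, and every ratio of injured to control, those of B2M included, carries this limit. Pairs of libraries shared 15 to 27 cell barcodes.

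B2M, the light chain, was detected in nearly every injured nucleus of every annotated type and in few control nuclei. Its level is given as UMIs per 1000000 UMIs of that library and cell type (CPM). In microglia it was 6750 CPM in F1565, 3613 in F1619, 3259 in F1711 and 8.03 in control. In Endo it was 11237, 11431, 7384 and 98.0 CPM in the same order of libraries. In astrocytes it was 2058, 1800, 1214 and 8.09 CPM. In each of these types the lowest injured library lay far above the control library, and Endo was also the type with the highest control level. In OPC the level was 4235, 2846, 1817 and 5.35 CPM, and in oligodendrocytes 3319, 2972, 1940 and 7.83 CPM. Both neuronal classes were lowest: ExN had 916, 947, 577 and 6.38 CPM. InN had 992, 948, 569 and 5.51 CPM. The order among injured cell types was therefore Endo, microglia, then the oligodendrocyte lineage, astrocytes and neurons, and the highest type exceeded the lowest by 12.1 to 13 times within an animal.

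Over the types with more than 3 control UMIs, the injured mean of B2M was 102 times the control level in Endo (counting interval of the control, 66.2 to 167), 128 times in ExN (106 to 155), 152 times in InN (94.7 to 260), 209 times in astrocytes (101 to 520) and 350 times in oligodendrocytes (191 to 731). In each of these 5 types B2M ranked 1st by fitted log2 fold change among all genes with more than 3 control UMIs. These were 7870 to 14940 genes depending on the type. The rank is a description, since B2M was chosen on this contrast. In the same rankings CAJA-E was 9th in oligodendrocytes and 89th in ExN. NLRC5 was 7th in oligodendrocytes and 179th in Endo. In microglia and OPC the control library held 1 B2M UMI each, so the ratios of 565 (101 to 22323) and 554 (99.5 to 21898) are known only within those bounds. Intervals of this kind are exact 95% Poisson intervals and cover counting error only; they say nothing of the spread between control animals, which were pooled.

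**Figure D1:**
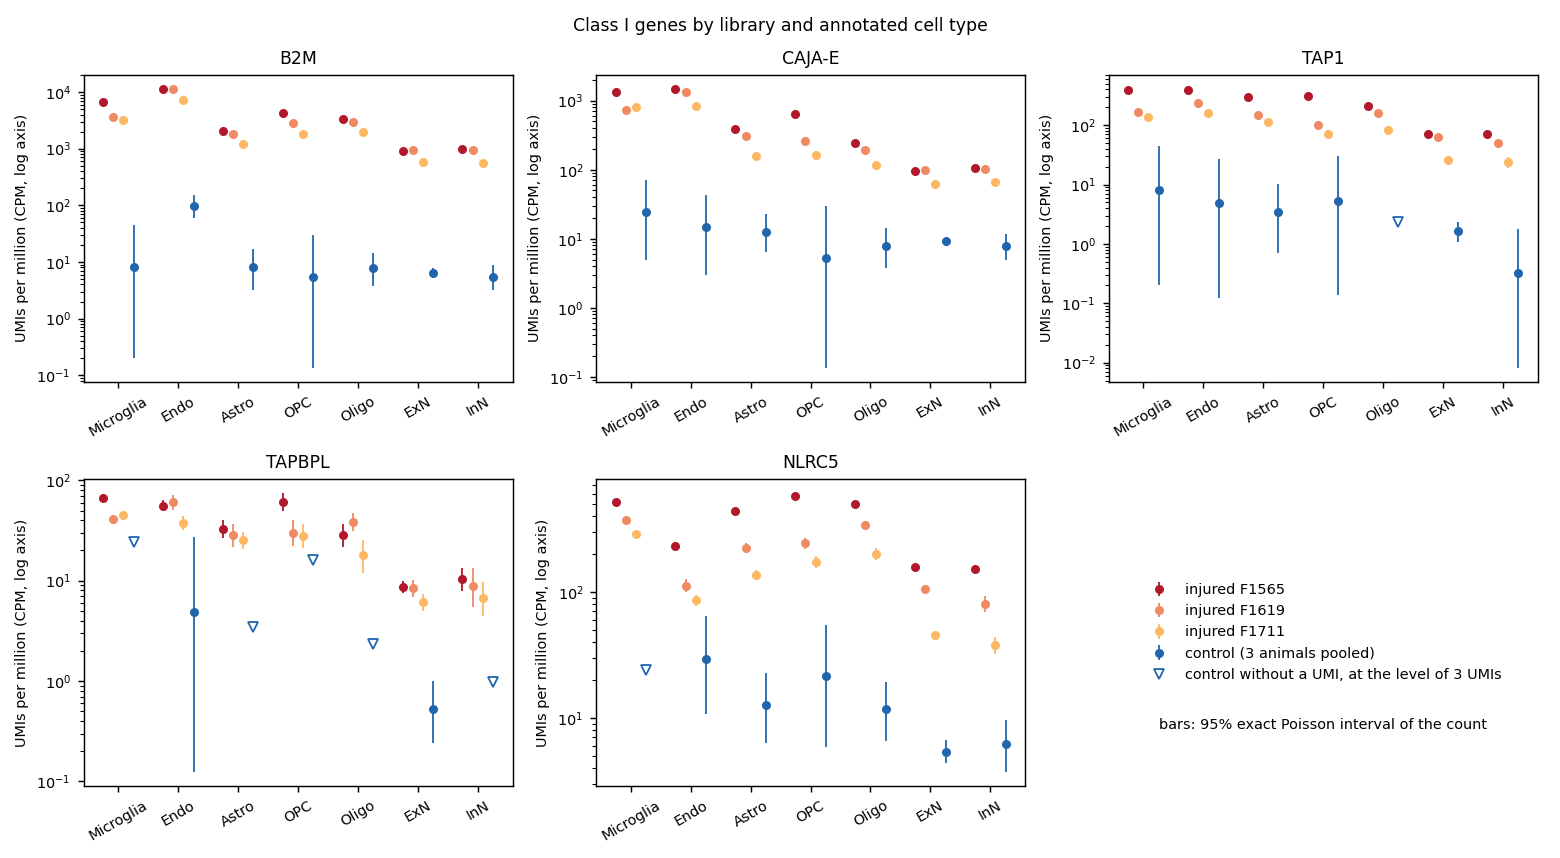
Level of each of the 5 genes in CPM (log axis) by annotated cell type; each point is 1 library with its exact Poisson interval, red to yellow for the 3 injured animals, blue for the pooled control, and open triangles for control sums without a UMI. In all 5 panels and all 7 types the injured points lie above the control point, as was so for 6.53% of the 16383 genes in both tables, and the injured mean of B2M is above 100 times control wherever the control held more than 3 UMIs.

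A UMI of B2M was present in 90.2% to 99.8% of injured nuclei and in 0.585% to 10.5% of control nuclei across the 7 types. Injured nuclei were deeper, so each nucleus was thinned to 1000 UMIs and shallower nuclei were left out. At this equal depth the share with B2M was 96.1%, 90.4% and 86.9% of microglia in F1565, F1619 and F1711 and 2.70% of 37 remaining control microglia. In ExN it was 57.4%, 58.7% and 42.7% against 0.699% of 5152 control nuclei. In Endo it was 92.3%, 92.1% and 90.6% against 11.8% of 85 control nuclei. The injured and control shares did not overlap in any type after thinning, which is a description, since B2M was chosen on this contrast; 3.77% of the 16383 genes also had all 3 injured animals above control in each type. Per 1000 UMIs, the median injured Endo nucleus held 5, 7 and 5 B2M UMIs and the 90th percentile 24, 28 and 18, while the median microglial nucleus held 5, 3 and 2.

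CAJA-E, the heavy chain, was highest in the same pair of types as B2M. In Endo it was 1463, 1352 and 839 CPM in F1565, F1619 and F1711, and 14.7 CPM (3 UMIs) in control. In microglia it was 1342, 736 and 807 CPM against 24.1 CPM (3 UMIs). All injured sums lay above the upper bound of the control interval. This is a description, since CAJA-E was chosen on this contrast, and the share of all genes above their interval was not taken. All injured sums lay above the control level in each type for 6.53% of the 16383 genes. OPC held 651, 258, 162 and 5.35 CPM, astrocytes 393, 312, 156 and 12.7 CPM, and oligodendrocytes 246, 190, 116 and 7.83 CPM. ExN were again among the lowest, with 94.3, 100, 61.1 and 9.19 CPM, and InN had 107, 104, 65.6 and 7.78 CPM. The injured level differed 13.5 to 15.5 times between the highest and the lowest of the 7 types. The control level was 7.78 to 12.7 CPM in astrocytes, oligodendrocytes, ExN and InN, the 4 types with more than 3 control UMIs.
The injured mean was 9.27 times control in ExN (7.93 to 10.9), 11.8 times in InN (7.95 to 18.5), 22.6 times in astrocytes (12.6 to 45.2) and 23.5 times in oligodendrocytes (12.8 to 49.0), so in each of these 4 types the control-relative increase of the heavy chain was smaller than that of B2M. Class I heavy chain genes are related in sequence, and reads of other marmoset heavy chains could be counted here or lost. This was not checked, and the CAJA-E values carry this uncertainty. After thinning, 64.9%, 49.6% and 51.4% of injured microglia and 9.07%, 9.27% and 6.94% of injured ExN held a CAJA-E UMI, against 2.70% and 1.11% in control.

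TAP1, the peptide transporter subunit, separated the injured animals as well as the cell types. Microglia held 398, 168 and 139 CPM in F1565, F1619 and F1711 and 8.03 CPM (1 UMI) in control. Endo held 395, 235, 163 and 4.90 CPM (1 UMI). Astrocytes held 300, 151, 112 and 3.47 CPM (3 UMIs). F1565 was the highest injured animal and F1711 the lowest in all 7 types. OPC followed with 314, 99.7, 71.3 and 5.35 CPM and oligodendrocytes with 206, 157 and 82.1 CPM. The control oligodendrocytes had no TAP1 UMI, and the injured mean was 63.3 times the level of 3 UMIs (51.4 times the upper Poisson bound of the control). ExN held 71.0, 62.8, 26.4 and 1.64 CPM, a mean 32.6 times control (22.5 to 49.0), and InN held 71.6, 49.2, 23.5 and 0.324 CPM (1 UMI). ExN were the only type with more than 3 control UMIs of TAP1, so the other ratios, 29.3 in microglia (5.25 to 1155) to 148 in InN (26.6 to 5863), are loose. At 1000 UMIs per nucleus, TAP1 was detected in 31.4%, 16.7% and 15.0% of injured microglia and in 6.73%, 5.55% and 3.47% of injured ExN, against 2.70% of control microglia (1 of 37, exact binomial interval 0.0684% to 14.2%) and 0.0970% of control ExN.

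TAPBPL, the peptide editor, had the fewest UMIs of the 5 genes, 3063 over the injured libraries. Microglia held 66.4, 41.4 and 44.9 CPM, and Endo 55.8, 60.4 and 37.5 CPM, in F1565, F1619 and F1711. OPC had 61.3, 30.2 and 28.1 CPM, astrocytes 32.8, 28.5 and 25.3 CPM, and oligodendrocytes 28.3, 38.6 and 17.8 CPM. Neurons were lowest, with 8.60, 8.42 and 6.08 CPM in ExN and 10.4, 8.81 and 6.68 CPM in InN. The control library held 10 TAPBPL UMIs in all, 9 of them in ExN (0.527 CPM) and 1 in Endo, and none in the other 5 types. The ExN mean was 14.6 times control (7.70 to 32.0). The injured mean was 12 times the level of 3 control UMIs in oligodendrocytes, 8.89 times in InN, 8.33 times in astrocytes, 2.48 times in OPC and 2.11 times in microglia. The last pair is limited by the few control nuclei. After thinning, TAPBPL was seen in 4.45% to 6.10% of injured microglia and 0.501% to 0.916% of injured ExN. It was seen in 0 of 37 control microglia, where the floor of 3 nuclei is 8.11% and the exact binomial upper bound 9.49%.

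NLRC5, the transactivator, had another cell type pattern. OPC held 572, 243 and 173 CPM in F1565, F1619 and F1711 and 21.4 CPM (4 UMIs) in control. Microglia held 517, 372 and 286 CPM and no control UMI, a mean 16.2 times the level of 3 UMIs (13.2 times the upper Poisson bound of the control). Oligodendrocytes held 500, 341, 200 and 11.7 CPM. These types and astrocytes, at 436, 221, 136 and 12.7 CPM, formed the upper group in every animal. Endo, the type with the most B2M and CAJA-E, held 233, 112, 85.4 and 29.4 CPM (6 control UMIs), a mean 4.88 times control (2.24 to 13.3). ExN held 158, 105, 45.0 and 5.38 CPM, 19.1 times control (15.6 to 23.7), and InN 153, 80.1, 37.6 and 6.16 CPM, 14.7 times control (9.38 to 24.3). Oligodendrocytes had 29.6 times the control level (17.9 to 52.8), astrocytes 20.8 times (11.6 to 41.7) and OPC 15.4 times (6.01 to 56.5). As for TAP1, F1565 was highest and F1711 lowest in all 7 types. At equal depth, 42.5%, 20.8% and 15.9% of injured OPC held an NLRC5 UMI and 19.5%, 7.90% and 6.87% of injured Endo, against 1.25% and 2.35% in control.

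**Figure D2:**
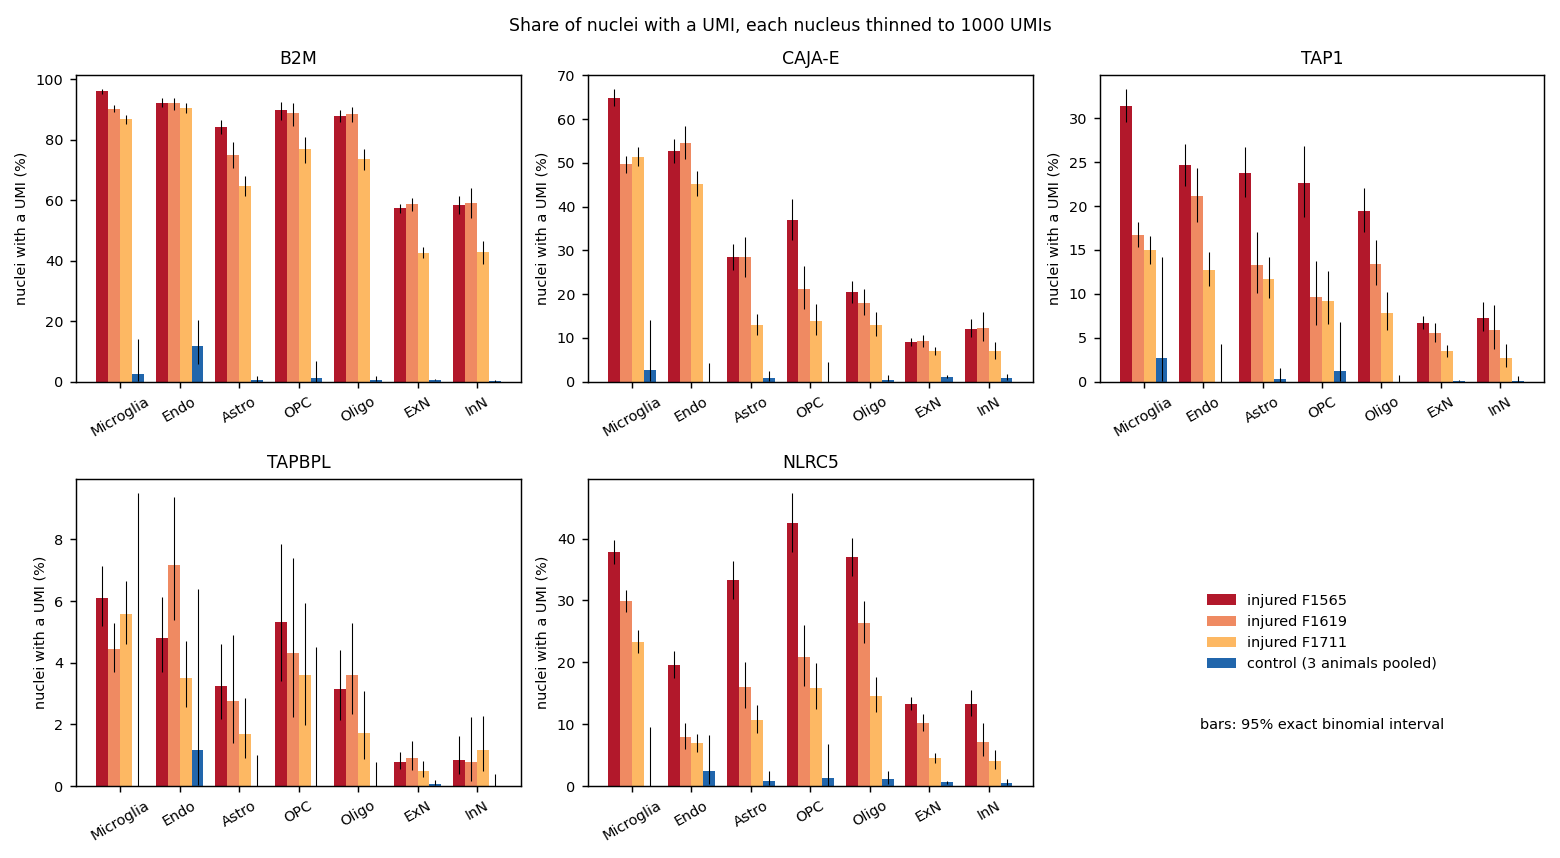
Percent of nuclei with a UMI of each gene after every nucleus was thinned to 1000 UMIs, by annotated cell type and library; bars are libraries and black lines are exact 95% binomial intervals. B2M reached 42.7% to 96.1% of injured nuclei and at most 11.8% of control nuclei. In the NLRC5 panel Endo, ExN and InN lie below OPC, microglia and oligodendrocytes in each injured animal.

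Because these genes were chosen from the contrast of injured with control nuclei, its test is given for them as a description only. The edgeR quasi-likelihood fit across all genes called a gene at an adjusted p below 0.01, a natural-log fold change beyond 0.25 and a UMI in at least 10% of nuclei of either group. It called B2M and CAJA-E in Endo, astrocytes, oligodendrocytes, ExN and InN, TAP1 in Endo, oligodendrocytes, ExN and InN, NLRC5 in oligodendrocytes and TAPBPL in astrocytes, which is 16 of 35 gene and type pairs, all 35 of them with a positive fitted log2 fold change. The share of all genes called in either direction was 6.18% in Endo, 3.85% in ExN, 3.41% in InN, 1.5% in astrocytes, 0.774% in oligodendrocytes and 0.0697% in OPC. In microglia 0 of 13470 genes were called by edgeR, although 2857 had an unadjusted p under 0.05 there and DESeq2 called 303. TAPBPL passed the p limit in ExN and InN but was present in fewer than 10% of nuclei. After thinning, 15 of 34 pairs were called (1.41% of all pairs). TAPBPL in astrocytes, then in a mean of 2.56% of injured nuclei, CAJA-E in ExN and TAP1 in ExN and InN fell under the 10% limit, and B2M in OPC and TAP1 and NLRC5 in astrocytes were called. The number of member calls moved with the animals used, from 8 of 35 without F1619 to 31 without F1565 and 26 without F1711, as the share of all gene and type pairs called moved from 2.35% to 1.09%, 7.03% and 3.86%. All 35 fold changes stayed positive in each of these fits.

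The comparison between cell types within injured animals does not use the control library, and its fit carried the animal as a block. Nuclei annotated as microglia were set against each other type. B2M was lower in microglia than in Endo, with a log2 difference of -0.91 ± 0.14 (SE; edgeR adjusted p = 7.1e-06) and in the same direction in all 3 animals. It was higher in microglia than in oligodendrocytes by 0.57 ± 0.14, OPC by 0.65 ± 0.14, astrocytes by 1.31 ± 0.14, ExN by 2.34 ± 0.15 and InN by 2.38 ± 0.15 on the log2 scale. All 6 differences of B2M were called. Without the block the calls against Endo, OPC and oligodendrocytes ended (edgeR adjusted p = 0.022, 0.10 and 0.13). Those against OPC and oligodendrocytes were no longer called without F1711 (edgeR adjusted p = 0.038 and 0.037).
CAJA-E was higher in microglia than in OPC by 1.58 ± 0.21, astrocytes by 1.72 ± 0.21, oligodendrocytes by 2.28 ± 0.22, InN by 3.35 ± 0.23 and ExN by 3.38 ± 0.22. Its difference from Endo was -0.07 ± 0.20 (edgeR adjusted p = 0.76), which does not show that the levels were equal.

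The transporter and the editor differed less among the non-neuronal types. TAP1 was higher in microglia than in ExN (log2 difference 1.97 ± 0.19), InN (2.24 ± 0.20) and OPC (0.64 ± 0.19), and the OPC call was lost without F1711 (edgeR adjusted p = 0.12). The TAP1 differences from oligodendrocytes (0.46 ± 0.19, edgeR adjusted p = 0.044), astrocytes (0.20 ± 0.19, edgeR adjusted p = 0.36) and Endo (0.03 ± 0.18, edgeR adjusted p = 0.88) were not called, the first being called without F1619 (edgeR adjusted p = 0.0028). TAPBPL was higher in microglia than in ExN (2.60 ± 0.18), InN (2.51 ± 0.21), astrocytes (0.70 ± 0.19) and oligodendrocytes (0.69 ± 0.20). The last pair lost its calls without F1565 or without F1711 (edgeR adjusted p between 0.028 and 0.11). After thinning all 4 calls ended: TAPBPL was then in under 10% of nuclei of every type, with log2 differences of 2.79, 2.52, 0.96 and 0.74, and the adjusted p limit was missed against oligodendrocytes. TAPBPL differences from Endo (0.26 ± 0.17) and OPC (0.39 ± 0.19) were not called. Without the block, only 1 call of the 5 genes stood against OPC, 1 against oligodendrocytes and 2 against astrocytes.
NLRC5 was the only gene of the 5 that was called higher in microglia than in Endo, by 1.81 ± 0.17 (edgeR adjusted p = 6.0e-09, 3 of 3 animals), a call that ended without the block (1.70, edgeR adjusted p = 0.012). It was also higher than in InN (2.24 ± 0.18), ExN (1.95 ± 0.17) and astrocytes (0.61 ± 0.17), the last call being lost without F1619 or F1711 (edgeR adjusted p = 0.025 and 0.057). Against OPC (0.42 ± 0.17, edgeR adjusted p = 0.037) and oligodendrocytes (0.11 ± 0.17, edgeR adjusted p = 0.61) NLRC5 was not called; without F1565 the OPC difference was called (0.67, edgeR adjusted p = 0.0044).

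Calls between cell types were common over all 14139 genes of this fit. In microglia, 22.9% of genes were called higher than in Endo and 13.2% lower, 20.3% higher and 22.7% lower than in ExN, 20.7% higher and 20.6% lower than in InN, 18.9% higher and 15.8% lower than in astrocytes, 18.5% higher and 15.6% lower than in OPC, and 17.1% higher and 12.4% lower than in oligodendrocytes. All 5 genes were called higher than in ExN and than in InN, 4 than in astrocytes, and 3 each than in OPC and in oligodendrocytes. Of the 41 other class I pathway genes in the fit, 25 were called higher in microglia than in ExN, 24 than in InN, 20 each than in OPC and in Endo, and 18 each than in astrocytes and in oligodendrocytes; 4 were called lower than in Endo, 1 each than in astrocytes, ExN and InN, and none than in OPC or oligodendrocytes. The microglial annotation also held many nuclei with markers of monocytes and macrophages, and it held UMIs of lymphocyte markers. All 8 monocyte and macrophage markers were detected in each of the 7 types of each injured animal. Their sum was 1654 to 3142 CPM in injured and 811 CPM in control microglia, where S100A8 and S100A9 were not detected, and 1019 to 1507 CPM in injured and 1214 CPM in control OPC. Without VCAN, a marker left out here after its values were seen, the other 7 summed to 1534 to 2881 CPM in injured microglia, 803 CPM in control microglia, 39.8 to 78.2 CPM in injured OPC and 16.0 CPM in control OPC. Of 9 T and NK cell markers with a row, all 9 were detected in injured microglia, at 171 to 206 CPM, and 2 in control microglia (64.3 CPM), where CD3D, CD3E, CD3G, CD8A, NKG7, GNLY and KLRD1 were at 0. Of 5 B and plasma cell markers, 4 or 5 were detected in each injured animal, at 65.6 to 108 CPM, and 2 in control (24.1 CPM). Among thinned injured nuclei annotated as microglia, those with a UMI of CD163, MRC1 or F13A1 but none of P2RY12 (1031, 1356 and 1081 of 2410, 2677 and 2046 nuclei) had 6668, 3571 and 3245 CPM of B2M in F1565, F1619 and F1711. Those with a P2RY12 UMI and none of the others (93, 73 and 83 nuclei) had 5398, 3890 and 2735 CPM. B2M was higher in the first set in F1565 and F1711 and lower in F1619. NLRC5 was higher in the first set in all 3 animals, at 575, 386 and 312 CPM against 269, 247 and 217 CPM. TAP1 was as well, at 414, 186 and 168 CPM against 226, 82.2 and 133 CPM. CAJA-E was 1426, 709 and 896 CPM against 742, 836 and 590 CPM, and TAPBPL 69.8, 47.2 and 59.2 CPM against 75.3, 41.1 and 24.1 CPM. The part of these sets in the differences between microglia and other types was not tested.

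Endo and neurons were examined in the same way. In thinned Endo nuclei with a UMI of FLT1, an endothelial receptor, and no pericyte or fibroblast marker (PDGFRB, RGS5, DCN, COL1A1, COL1A2), B2M was 13722, 13765 and 9921 CPM. In Endo nuclei with a pericyte or fibroblast marker and no FLT1 it was 9179, 13257 and 7325 CPM. B2M was higher in the FLT1 set in all 3 animals, by a margin that differed between them. CAJA-E was 1861, 1553 and 1109 CPM in the FLT1 set against 1173, 1621 and 789 CPM, and TAP1 552, 376 and 168 CPM against 297, 272 and 161 CPM. NLRC5 was 226, 35.3 and 114 CPM against 288, 58.3 and 67.0 CPM, and TAPBPL 63.5, 129 and 24.8 CPM against 60.7, 68.0 and 49.6 CPM, so these genes kept no single order between the sets. The FLT1 set of F1619 held 85 nuclei, so its NLRC5 and TAPBPL values rest on few UMIs. In Endo the 44 ribosomal protein genes of both tables also took 5.89 times the control share of UMIs, against 1.17 to 1.32 times in the other 6 types, and the part of this shift in the Endo values was not tested.
In ExN, genes that microglia express served as a measure of free RNA. Transcripts of these genes made by the other cell types themselves would enter it too. Whether such types made C1QB or CD74 was not tested. The ExN level of C1QB, a complement subunit made by microglia, was 3.13%, 8.36% and 4.62% of the microglial level in F1565, F1619 and F1711. That of CD74, the class II invariant chain, was 7.56%, 16.0% and 6.89%. For B2M the same quotient was 13.6%, 26.2% and 17.7%, for TAP1 17.8%, 37.4% and 19.0%, and for NLRC5 30.6%, 28.3% and 15.7%, each above CD74 in the same animal. For CAJA-E it was 7.03%, 13.6% and 7.57%, at the level of CD74 and above C1QB in each animal, so the microglial genes gave no single answer for CAJA-E in neurons. Of free RNA, the measure covers that of microglia only. In Endo B2M was at 166% to 316% and TAP1 at 99.2% to 140% of the microglial level, against 26.7% to 63.9% for CD74. NLRC5 was at 60.5% to 111% in OPC and 70.0% to 96.7% in oligodendrocytes, against 9.66% to 22.6% for CD74 in these types. A quotient above that of CD74 therefore does not set B2M, TAP1 or NLRC5 in neurons apart from free RNA of other cells. In oligodendrocytes CAJA-E stood at 18.4%, 25.8% and 14.4% and CD74 at 13.8%, 22.6% and 14.0%, which are close in F1619 and F1711. In astrocytes CAJA-E (29.3%, 42.4% and 19.3%) was further above CD74 (10.1%, 16.8% and 8.12%), and in OPC it was 48.5%, 35.1% and 20.1% against 14.4%, 20.9% and 9.66%. B2M, TAP1, TAPBPL and NLRC5 exceeded CD74 in each of these 3 types and animals.

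The 5 genes did not keep 1 ratio to each other across cell types of the same library. Per 100 B2M UMIs, NLRC5 had 2.08, 0.982 and 1.16 UMIs in Endo of F1565, F1619 and F1711, and 21.2, 12.3 and 11.2 in astrocytes. The highest type exceeded the lowest 9.70 to 12.5 times within an animal. For TAP1 the values were 3.51, 2.06 and 2.21 in Endo and 14.6, 8.39 and 9.22 in astrocytes. TAPBPL was also lowest relative to B2M in Endo (0.497 to 0.529) and highest in astrocytes (1.58 to 2.08) in each animal. CAJA-E was lowest in oligodendrocytes, with 7.42, 6.40 and 5.98 per 100 B2M UMIs, and highest in microglia, with 19.9, 20.4 and 24.8. These quotients compare UMIs of different transcripts, so their size is read only between sums of nuclei. As a description, since the genes were chosen on the contrast with control, in control ExN, the only control sum with more than 100 B2M UMIs, CAJA-E stood at 144 and NLRC5 at 84.4 UMIs per 100 of B2M, against 10.3 to 10.6 and 7.80 to 17.2 in injured ExN.

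**Figure D3:**
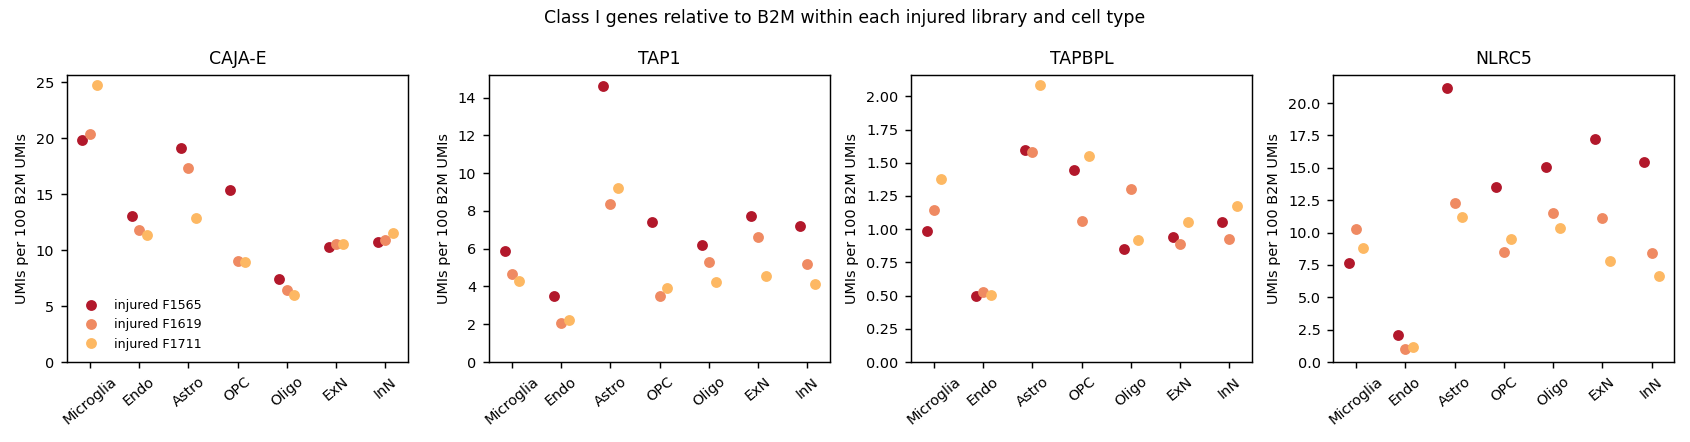
UMIs of CAJA-E, TAP1, TAPBPL and NLRC5 per 100 B2M UMIs in each injured library (colour) and annotated cell type. Endo lies lowest for TAP1, TAPBPL and NLRC5, astrocytes lie highest for the same genes, and CAJA-E is highest in microglia and lowest in oligodendrocytes.

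The injured animals differed in a repeated order. NLRC5 and TAP1 were highest in F1565, intermediate in F1619 and lowest in F1711 in 7 of 7 types, an order that 0.777% of the 11840 genes with a mean of at least 5 CPM showed in all 7. B2M was lowest in F1711 in 7 of 7 types (2.19% of those genes) and highest in F1565 in 5. F1565 exceeded F1711 by a median over types of 3.2 times for NLRC5, 2.69 times for TAP1, 1.74 times for CAJA-E, 1.71 times for B2M and 1.49 times for TAPBPL. Cell types of an animal share a library, so 7 of 7 is not 7 independent observations. On the list of pathway genes, IRF1, CIITA, PSMB9, PSME2 and TAPBP showed the full order in 7 of 7 types too; they are named here after their values were seen.

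IFNG, which encodes interferon gamma, the cytokine best known for inducing class I, was listed for the injured animals only. It had 516 UMIs in F1565, 133 in F1619 and 34 in F1711, or 10.6, 3.72 and 0.791 CPM over all nuclei. The order of the animals was that of NLRC5 and TAP1, and within cell types IFNG kept it in 5 of 7. Over the injured animals IFNG had 583 UMIs in microglia, 46 in ExN, 33 in Endo and 10 in InN. Astrocytes held 6, oligodendrocytes 4 and OPC 1, so most types had too few UMIs to order the animals. The share of all genes with this order, over whole libraries or in 5 of 7 types, was not taken. A link between IFNG and these genes was not tested. Nuclei annotated as microglia held 435, 118 and 30 of these UMIs, in 59, 36 and 5 nuclei, and a single nucleus held up to 213, 31 and 23. Among the 100 microglia-annotated nuclei with an IFNG UMI, 25% had a UMI of CD3E (exact binomial interval, 16.9% to 34.7%), 33% of NKG7 (23.9% to 43.1%), 30% of KLRD1 (21.2% to 40%) and 53% of CD247 (42.8% to 63.1%), all T and NK cell genes. Among the 7633 others the shares were 3.22%, 1.35%, 1.66% and 12.7%. Of the other 5 markers of these cells, CD3G was at 24% against 2.36% and CD3D at 12% against 1.40%. CD8A and GNLY were rare at 5% and 4% against 0.445% and 0.249%. CD2 was at 24% (16.0% to 33.6%) against 18.1% (17.2% to 18.9%), with overlapping intervals. C1QB went the other way, at 23% against 50.5%, and so did P2RY12, a receptor of resident microglia, at 6% against 25%. The median depth was 2896.5 UMIs with IFNG and 3028 without. These shares pool nuclei of the injured animals, only 5 of those with IFNG being from F1711, and were not split by animal. Their intervals treat nuclei as independent and do not cover the spread between animals, so the shares are a description.

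**Figure D4:**
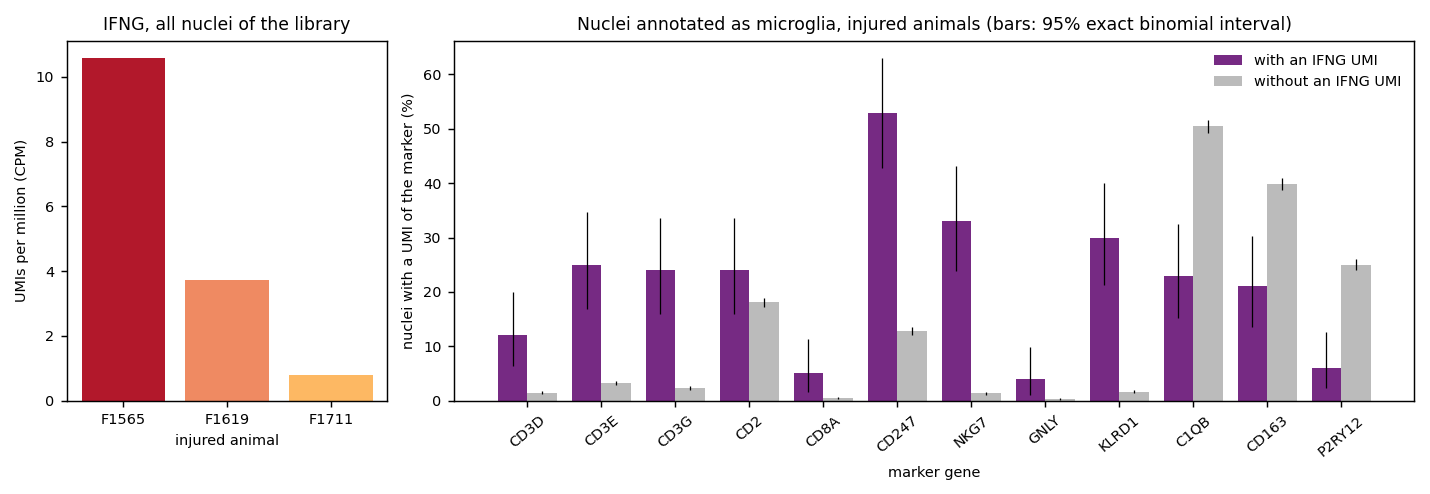
Left, IFNG in CPM over all nuclei of each injured animal; right, percent of microglia-annotated injured nuclei with a UMI of each T and NK cell marker, C1QB, CD163 or P2RY12, split by presence of an IFNG UMI, with exact 95% binomial intervals. IFNG falls from 10.6 CPM in F1565 to 0.791 CPM in F1711, and CD3E, NKG7 and KLRD1 stand at 25% to 33% of nuclei with IFNG against 1.35% to 3.22% of the others. Nuclei are pooled over the animals, so the intervals do not cover the spread between animals.

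The rest of the pathway was read from a list of 67 other class I genes. Of these, 40 were in both tables, 10 only in the injured table (5 of them without a UMI) and 17 were not analysed here. The same fit of injured against control nuclei called 4 of 37 tested genes in Endo, all higher (4.19% of all genes were called higher there), 3 of 37 in astrocytes (1.12%), 2 of 35 in oligodendrocytes (0.619%), 2 of 35 in InN (2.2%) and, in ExN, 3 of 38 higher (2.6%) and 1 lower (1.25%). In microglia 0 of 40 and in OPC 0 of 35 were called by edgeR, with 18 and 12 at an unadjusted p under 0.05, and DESeq2 called 3 and 1. The median fitted log2 fold change of the list was 0.79 in Endo, 0.74 in astrocytes, 0.85 in oligodendrocytes, 0.49 in ExN and 0.66 in InN, against 0.26, 0.05, 0.02, 0.00 and 0.00 over all genes tested; it was 1.68 in microglia and 1.27 in OPC, against 0.42 and 0.17. Restricted to genes with more than 3 control UMIs, the list medians were 0.32 to 0.79 and those of all genes -0.15 to -0.00. Counts shifted with the animals: without F1619 they were 2 in Endo, 2 in astrocytes, 1 in oligodendrocytes, 1 in ExN and 3 in InN, without F1565 they were 8, 8, 3, 5 and 6, with 2 in microglia and 5 in OPC, and without F1711 they were 8, 6, 5, 7 and 5, with 0 in microglia and 4 in OPC. Calls over all genes shifted in the same fits, with 513 to 1617 in Endo, 82 to 716 in astrocytes, 48 to 195 in oligodendrocytes, 77 to 920 in ExN, 245 to 1541 in InN, 0 to 395 in microglia and 0 to 820 in OPC. The control arm of this fit is 1 library, so a call rests on the spread of the injured animals alone, and rose or fell below means called higher or lower than that library.

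Among peptide loading genes, CALR, which encodes the chaperone calreticulin, rose in 5 types. In ExN it was 73.3, 86.3 and 85.8 CPM in F1565, F1619 and F1711 and 11.9 CPM in control (log2 fold change 2.90 ± 0.17, edgeR adjusted p = 0.00076). In InN the log2 fold change was 2.94 ± 0.22, in oligodendrocytes 2.68 ± 0.23 and in astrocytes 3.18 ± 0.34. In Endo CALR was 498, 687 and 640 CPM against 2 control UMIs. Unlike TAP1 and NLRC5, CALR was highest in F1565 in only 3 of 7 types, namely astrocytes, microglia and OPC. CANX, encoding the related chaperone calnexin, rose in Endo (2.48 ± 0.38), oligodendrocytes (1.90 ± 0.24) and ExN (1.68 ± 0.17), where it was 68.7, 63.0, 76.6 and 23.5 CPM. PDIA3, a disulfide isomerase of the loading complex, rose in Endo, at 241, 242 and 217 CPM against 93.1 CPM (1.46 ± 0.28). TAP2 and TAPBP, the partners of TAP1, were called in no type. Without F1619 the calls of CANX in ExN and oligodendrocytes and of PDIA3 in Endo were lost (edgeR adjusted p between 0.012 and 0.019). The PDIA3 call also ended with DESeq2 (adjusted p = 0.012), with library size scaling (edgeR adjusted p = 0.014) and after thinning (log2 fold change 0.71 ± 0.38, edgeR adjusted p = 0.25). After thinning CANX was in under 10% of ExN and oligodendrocyte nuclei and was not called there, with log2 fold changes of 1.75 ± 0.19 and 2.35 ± 0.39. CALR was then in under 10% of ExN and InN nuclei and was not called there. Its log2 fold changes were 2.70 ± 0.21 and 3.01 ± 0.38.

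Among proteasome genes, PSMB10, an immunoproteasome subunit, rose in ExN (20.0, 24.0, 18.5 and 4.21 CPM; log2 fold change 2.41 ± 0.24, edgeR adjusted p = 0.0020) and in InN (2.48 ± 0.39). PSMB5, a constitutive proteasome subunit, rose in Endo (79.6, 101 and 89.4 CPM against 19.6 CPM from 4 UMIs; 2.32 ± 0.46). Without F1619 the PSMB10 call in ExN (edgeR adjusted p = 0.013) and the PSMB5 call (0.020) were lost. The PSMB5 call also ended with DESeq2 (adjusted p = 0.027), with library size scaling (edgeR adjusted p = 0.018), with genes not listed for control counted as 0 (edgeR adjusted p = 0.0102) and after thinning (log2 fold change 1.56 ± 0.71, edgeR adjusted p = 0.18). After thinning PSMB10 was in under 10% of ExN and InN nuclei and was not called, with log2 fold changes of 2.59 ± 0.32 and 2.73 ± 0.72. The other proteasome genes, PSMB9 included, and the 5 peptide trimming genes were not called by edgeR in any type at this limit. DESeq2 called PSMB9 in Endo, astrocytes, oligodendrocytes and ExN, and TPP2, a trimming gene, in ExN.

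Among regulators, IRF1, an interferon-induced regulator upstream of NLRC5, rose in astrocytes, where it was 339, 213 and 139 CPM against 6.94 CPM (5.15 ± 0.73), a call that was lost without F1619 (edgeR adjusted p = 0.012). IRF1 was also higher in the injured animals in every other type, without an edgeR call there. DESeq2 called it in microglia, oligodendrocytes, ExN and InN too. Its log2 fold change was 5.72 ± 1.12 in oligodendrocytes and between 2.97 (ExN) and 4.07 (microglia) in the rest. The control held 64 IRF1 UMIs in ExN, 6 each in astrocytes and InN, and 4 each in oligodendrocytes and Endo. It held 3 in microglia and 2 in OPC, so the fold changes outside ExN are loose. JAK2, a kinase bound to the interferon gamma receptor, also rose in astrocytes, with 231, 157 and 153 CPM against 25.4 CPM (2.94 ± 0.38). IFNGR2, a chain of that receptor, was the only listed gene called lower, in ExN, with 17.1, 18.5 and 18.3 CPM against 37.9 CPM (-0.96 ± 0.14, edgeR adjusted p = 0.0061); its call was lost without F1619 (edgeR adjusted p = 0.033) and after thinning (log2 fold change -1.07 ± 0.24, edgeR adjusted p = 0.014). In InN its log2 fold change was -0.90 ± 0.21 (edgeR adjusted p = 0.019), which was not called. An IFNGR2 UMI was present in 9.79% of injured and 10.3% of control ExN nuclei, and in 1.65% and 3.73% at equal depth. Only 2 of the 15 listed heavy chain and class I-like genes and 3 of the 8 receptors that read class I could be tested in any type, and none of these was called.

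**Figure D5:**
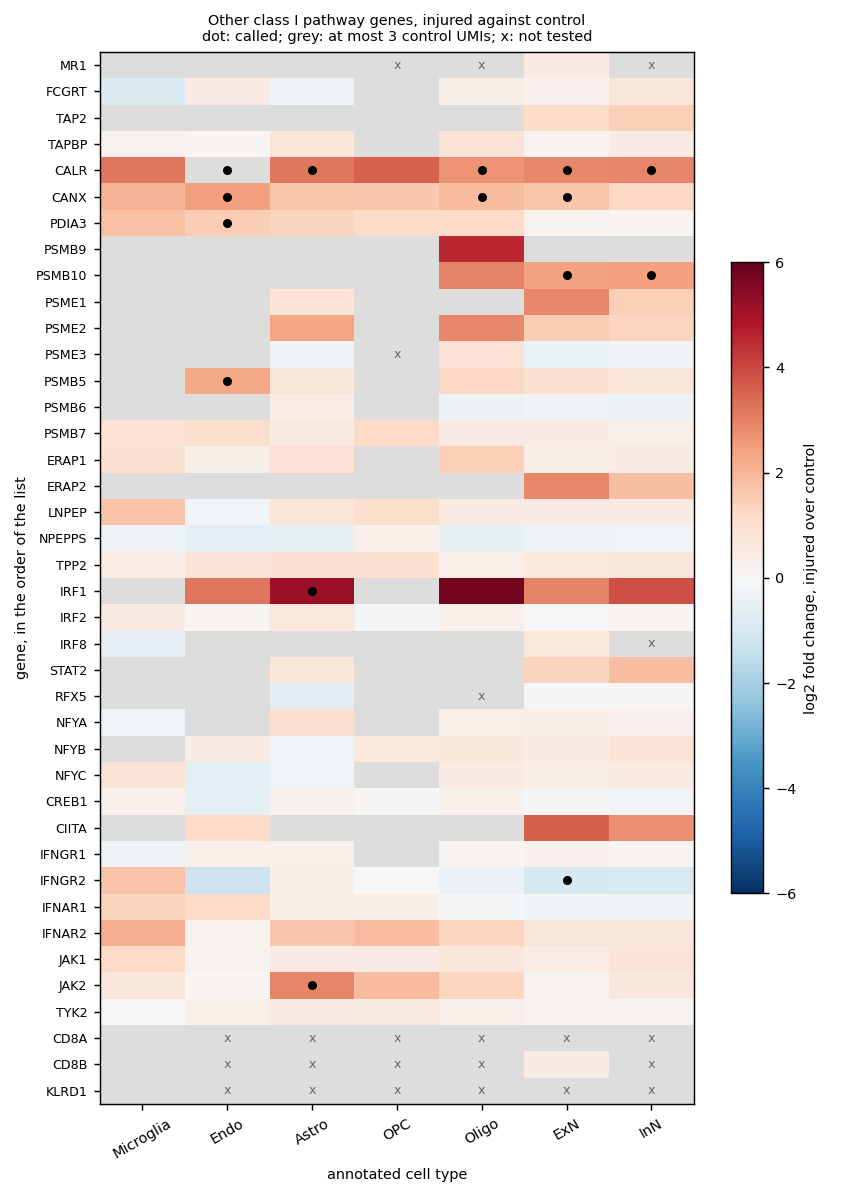
Fitted log2 fold change of each tested pathway gene (rows) in each annotated cell type (columns), injured over control, red for higher and blue for lower; black dots mark called genes, grey marks at most 3 control UMIs and x marks genes not tested. CALR carries dots in 5 types, microglia and OPC carry none, and the only dot on a negative value is IFNGR2 in ExN.

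The genes whose levels followed each member most closely were ranked by Pearson's r of log2(CPM + 1) over the 21 injured sums (3 libraries by 7 types), which share libraries and depth, so r is a description. For B2M they were PSME1 (0.971), ENSCJAG00000007730 (0.955), TXNIP (0.952), VAMP5 (0.952) and ENSCJAG00000016062, named SRSF3 (0.951). For CAJA-E they were ENSCJAG00000020117, named TRIM6 (0.972), TMEM140 (0.969), PDIA3 (0.960), SMNDC1 (0.960) and DERL2 (0.956). For TAP1 they were IFIT2 (0.968), PSMB9 (0.964), DTX3L (0.960), GBP1 (0.957) and ENSCJAG00000001988 (0.949). For TAPBPL they were RBM43 (0.958), TMEM179B (0.956), SP100 (0.954), TRIM5 (0.948) and HSPA5 (0.947). For NLRC5 they were NANS (0.946), DHX58 (0.911), NUB1 (0.908), ENSCJAG00000006750, named PRORP (0.902), and IRF2 (0.891). Among the members, r with B2M was 0.936 for CAJA-E, rank 16 among the genes with a mean of at least 5 CPM, 0.858 for TAP1 (rank 331) and 0.527 for NLRC5 (rank 2743). For NLRC5, r with TAP1 was 0.797 (rank 58). A high r was thus common over these sums.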

How the data were processed

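Nuclei of frozen V1 were profiled with 10x Chromium 3′ v3 chemistry. Per the labels and the study's methods, the authors aligned and counted reads with Cell Ranger 3.1.0 on calJac3 with an Ensembl annotation (the labels name Cell Ranger for all libraries, while the methods describe the reference for reads of the sequencer used for injured libraries), removed doublets with Scrublet (injured) or a Seurat filter on genes per nucleus (control, after FACS), clustered with Seurat and assigned the cell types used here. The deposited tables hold raw UMI counts per gene and nucleus, and UMI counts and detected genes per nucleus; the summed counts matched the deposited totals in all 38147 nuclei. Genes in both tables took 99.6% of injured UMIs. Of the listed genes, 5 were found by Ensembl identifier through the gene name table. The members and gene lists were chosen with earlier results of these data known. A gene of the pathway list is not reported here and was left out of the list's counts and medians.

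Sums of UMIs over the nuclei of a type in a library were tested with edgeR 4.0.16 (R 4.3.3; TMM, filterByExpr, quasi-likelihood, Benjamini-Hochberg over all genes tested): injured against control within each type, where the spread is that of the 3 injured libraries, and microglia against each type in injured animals, with the animal as a block, because all types of an animal come from 1 library. No replicate numbers pair injured with control samples. Genes were called under the study's limits, namely adjusted p below 0.01, fold change beyond 0.25 on the natural-log scale, and detection in 10% or more of the nuclei on either side. Genes named by rule were the members, up to 4 called genes per functional group with the largest fold change, and every called gene that fell. The 5 genes most correlated with each member over 21 injured sums were named too (log2(CPM + 1), mean at least 5 CPM). Other pathway genes were named outside this rule, as not called, without a control row or after their values were seen. Cell type markers came from fixed lists. Without a control UMI, folds are given against a floor of 3 UMIs in that sum, and the upper Poisson bound of the control gives smaller folds. Depth was 35737777 to 48722394 UMIs per injured library and 22832703 in control; intervals and floors cover counting error only. Alternatives were DESeq2 1.42.0, library size scaling, no filter, an adjusted p of 0.05, nuclei thinned to 1000 UMIs, nuclei with at most 2500 genes, each animal left out, the fit without the block, and, chosen after seeing the data, genes not listed for control counted as 0. On simulated counts for astrocytes (12366 genes), 66% of genes changed 4-fold, 2% of those changed 2-fold and 0% of unchanged genes were called; for microglia against ExN (13653 genes) the shares were 100%, 100% and 0.0223%. The simulated calls left out the 10% detection limit. Only genes above a minimum expected count were changed, with 1 common spread for all genes and no protocol difference between groups. These shares therefore do not carry over to genes with few control UMIs.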

Additional observations from a re-analysis of the deposited data

Results flagged for a closer look

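The control table lists fewer genes than the injured table, and 5 genes of the pathway list had UMIs in the injured libraries without a row for control, so the comparison of injured with control nuclei did not use them except where such genes were counted as 0; PSMB8 entered the comparison between injured cell types. PSMB8, an immunoproteasome subunit, had 1315 UMIs, of which 547 were in microglia, 390 in Endo and 193 in ExN. It had 624 UMIs in F1565, 453 in F1619 and 238 in F1711. IFNG had 683 UMIs, 583 of them in nuclei annotated as microglia. CD1D, a class I-like molecule that presents lipids, had 21 UMIs, 16 of them in F1619. IFNB1, which encodes interferon beta, had 19 UMIs, 15 in F1565, 4 in F1619 and 0 in F1711. SOCS3, a brake on cytokine signaling, had 15 UMIs. Why these genes have no control row was not tested; a filter on low counts and a lack of transcripts cannot be told apart.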

How the results depend on the processing

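The counts of other pathway genes called in injured against control nuclei depended on the limits and the animals. At an adjusted p below 0.05 they were 3 in microglia, 8 in Endo, 10 in astrocytes, 1 in OPC, 6 in oligodendrocytes, 10 in ExN and 7 in InN. DESeq2 called 3 in microglia, 1 in OPC, 4 in oligodendrocytes, 7 in ExN and 4 in InN. Library size scaling left 2 in Endo. Without the filter on low counts there were 5 in astrocytes, 4 in oligodendrocytes and 4 in InN. After thinning there were 2 in Endo, 0 in ExN and 0 in InN; CALR in ExN and InN then had a UMI in under 10% of nuclei. Leaving out 1 injured animal gave 0 to 2 in microglia, 2 to 8 in Endo, 2 to 8 in astrocytes, 0 to 5 in OPC, 1 to 5 in oligodendrocytes, 1 to 7 in ExN and 3 to 6 in InN; the highest count came without F1565 or F1711. Counting genes not listed for control as 0 moved no count beyond 1.5 times. For all genes, the 7 fits together called 2126 gene and type pairs, 6945 at an adjusted p below 0.05, 3363 with DESeq2 and 1012 after thinning. Without F1619 there were 971, without F1565 6203 and without F1711 3423.

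For microglia against the other types, without the replicate block member calls fell to 0 against Endo, 2 against astrocytes, 1 against OPC and 1 against oligodendrocytes; the 5 against ExN and the 5 against InN stayed at 5. After thinning, other pathway genes called were 11 against Endo, 12 against astrocytes, 10 against OPC, 13 against ExN and 12 against InN. Leaving out 1 animal gave 2 to 3 member calls against astrocytes, 1 to 4 against OPC and 1 to 4 against oligodendrocytes. Without the filter on low counts there were 4 member calls each against OPC and oligodendrocytes, and after thinning 3 against each. Differences that were not called changed sign: TAP1 against Endo was -0.10 with DESeq2, -0.22 with library size scaling, -0.083 without the filter. With 1 animal left out it was -0.28 to 0.049, CAJA-E against Endo -0.35 to 0.0060, TAPBPL against Endo -0.058 to 0.35 and NLRC5 against oligodendrocytes -0.035 to 0.19. The cause was not tested.

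The control is 1 pooled library with 129 microglia, 171 OPC and 181 Endo nuclei, so its between-animal spread is unknown and a missing call there says little. In nuclei with at most 2500 genes the mean B2M level was 1065 CPM in ExN and 1231 CPM in InN; 30 of 35 mean CPM values moved by less than 1 SD between animals.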

Other observations

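Nuclei with and without an NLRC5 UMI were compared within each injured library and cell type after thinning to 1000 UMIs. The mean TAP1 count in nuclei with NLRC5 was above that in nuclei without it in 17 of 21 sums, with a median ratio of 1.25 and a range of 0 to 2.20. For B2M the ratio was above 1 in 17 of 21 sums, with a median of 1.13 (0.825 to 1.70), and for CAJA-E in 14 of 21, with a median of 1.10 (0.497 to 2.10). In InN of F1619 and F1711 only 28 nuclei each held NLRC5, with TAP1 ratios of 0.588 and 0. The same ratio was not taken over other genes, so whether ratios above 1 are particular to these genes is not known. The counts are sparse and the sums share libraries, so these ratios are given as values only.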
